A study of Homo sapiens with 12 samples.

Results

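Integrins are cell surface receptors, each built from 1 alpha and 1 beta chain, that hold cells to the matrix and to other cells. Laminins are the main adhesive proteins of basement membranes, each built from 1 alpha, 1 beta and 1 gamma chain. The genes described here are 34 listed integrin and laminin chain genes, listed by gene family. Of these, 32 had a probe set that named them alone, 23 integrin and 9 laminin genes, among 19774 genes measured on the arrays. ITGA1 and LAMA3 had no such probe set and were not analysed here.

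The study placed microRNAs of the miR-200 family into 3 human cell lines that the labels call colorectal cancer lines with methylated miR-200 loci. The lines are HUTU-80, which is catalogued elsewhere as a duodenal line, MDST8 and NCI-H716. Cells received lentivirus and were sorted on green fluorescence 48 hours later, and RNA was taken 7 days after transduction and hybridised to 12 arrays. In MDST8 and NCI-H716 there was 1 array each with both clusters, 1 with the miR-200c141 cluster alone, 1 with the miR-200ba429 cluster alone and 1 control. In HUTU-80 there were 2 arrays with miR-200c141, titled 1:3 and 1:5, 1 with miR-200ba429 and 1 control, and none with both clusters. The cells with both clusters were miR-200ba429 cells given a second virus, for miR-200c141, 24 hours after sorting, so they had gone through 2 transductions and the single-cluster cells through 1. The labels give neither what the control cells received nor what 1:3 and 1:5 stand for. The 2 HUTU-80 miR-200c141 arrays were averaged into 1 sample, which left 11 samples. Each construct in each line was therefore a single sample. The p-values for named construct groups and for levels between lines rest on the spread left after terms for line and construct. For any construct against control, that spread also holds the differences between constructs. For the change between lines, the p-value rests on the spread between different constructs within a line.

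Laminin chains are secreted as trimers, and laminin-332, which contains LAMB3, anchors epithelial cells to the basement membrane through integrin alpha-6 beta-4 in hemidesmosomes. Integrin alpha-2 beta-1, whose alpha chain is ITGA2, is a receptor for collagens and, in some cells, for laminins. The miR-200 family holds epithelial cells in their epithelial state largely by repressing ZEB1 and ZEB2, transcription factors that bind E-box sequences and shut down epithelial genes. Loss of miR-200 and gain of ZEB factors accompany the epithelial-mesenchymal transition, in which cells change their matrix receptors and the matrix they make.

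The mature 3′ forms of the introduced microRNAs show which of them share a seed, the 7 bases that pair with a target, here bases 2 to 8 in capitals. RefSeq places miR-200c and miR-141 on chromosome 12 and miR-200b, miR-200a and miR-429 on chromosome 1, all on the plus strand of GRCh38.p14, at chr12:6963742-6963764, chr12:6964155-6964176, chr1:1167160-1167181, chr1:1167916-1167937 and chr1:1169055-1169076 in the order printed.
hsa-miR-200c-3p: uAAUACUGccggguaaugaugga
hsa-miR-141-3p: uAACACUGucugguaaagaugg
hsa-miR-200b-3p: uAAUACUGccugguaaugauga
hsa-miR-200a-3p: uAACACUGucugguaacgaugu
hsa-miR-429: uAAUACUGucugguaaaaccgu
The seed of miR-200c, miR-200b and miR-429 was the same, and that of miR-141 and miR-200a was the same, with 1 base between both seeds. Each construct thus carried both seeds, miR-200c141 in 1 microRNA each, and miR-200ba429 with the first seed in 2 microRNAs and the second in 1.

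The promoters of the 2 members with a call in a comparison of constructs, LAMB3 and ITGA2, are shown because ZEB factors are known to bind the E-box CAGGTG, which reads CACCTG on the opposite strand. Each RefSeq window runs from 250 bases before to 50 bases after an annotated start, and both spellings, which never overlap each other, were searched. The first LAMB3 window lies at chr1:209652376-209652675 on the minus strand, and the ITGA2 window at chr5:52989102-52989401 on the plus strand (GRCh38.p14), with the motif in capitals.
LAMB3 window 1: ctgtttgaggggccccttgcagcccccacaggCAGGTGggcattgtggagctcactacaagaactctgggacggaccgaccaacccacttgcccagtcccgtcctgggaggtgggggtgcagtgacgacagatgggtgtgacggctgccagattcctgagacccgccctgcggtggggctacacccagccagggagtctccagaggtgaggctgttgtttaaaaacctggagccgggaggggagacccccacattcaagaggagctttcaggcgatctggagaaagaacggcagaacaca
ITGA2 window 1: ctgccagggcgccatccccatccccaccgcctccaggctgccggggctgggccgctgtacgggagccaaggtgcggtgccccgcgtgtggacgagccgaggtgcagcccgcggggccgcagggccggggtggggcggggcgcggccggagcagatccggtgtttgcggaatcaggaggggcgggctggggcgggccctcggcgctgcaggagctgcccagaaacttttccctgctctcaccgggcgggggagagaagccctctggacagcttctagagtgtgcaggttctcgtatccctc
The first LAMB3 window held 1 CAGGTG, which starts 218 bases before the annotated start. The other 2 LAMB3 windows and the ITGA2 window did not hold these letters. Of the 29 windows found for 22 members, 6 (20.69%) held the motif, against 7231 of all 35116 windows (20.59%). A match is a description of the letters and not evidence of binding.

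Values are log2 intensities, and a value was counted as above background where it exceeded 5.43, the highest value of the array's 23 nonspecific control probe sets. The median of an array lay between 3.60 and 3.66. Over all genes, any pair of arrays within a line correlated at 0.978 or above, and any pair across lines at 0.885 or below. ZEB1, the best known target of the family, was lower than in the control of its line on all 9 construct arrays, with changes of −2.24 to −0.13 log2 units. ZEB2 changed by −2.55 to 0.18, but it was above background only in MDST8. There it changed by −2.55 with both clusters, −1.62 with miR-200c141 and −0.38 with miR-200ba429. The MDST8 array with both clusters was just below background for ZEB2 (5.42), so the full size of that fall was not measured. Of 11 colorectal epithelial markers, 10 to 11 were above background on the NCI-H716 arrays with constructs, 3 to 4 on those of HUTU-80 and 1 to 2 on those of MDST8. In the controls there were 9 in NCI-H716, 1 in HUTU-80 (KRT8) and 1 in MDST8 (KRT18), so most markers of the labelled tissue were at or below background in the HUTU-80 and MDST8 controls. The summed log2 level of this list was highest in NCI-H716 (96.3 to 104 with constructs, 84.0 in the control). Of 8 mesenchymal markers, 6 were above background on the HUTU-80 arrays with constructs, 5 to 6 in MDST8 and 2 to 3 in NCI-H716, against 6, 7 and 2 in the controls of these lines. None of 5 endothelial markers was above background on any array, and of 6 leukocyte markers only LYZ was, in NCI-H716.

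**Figure D1:**
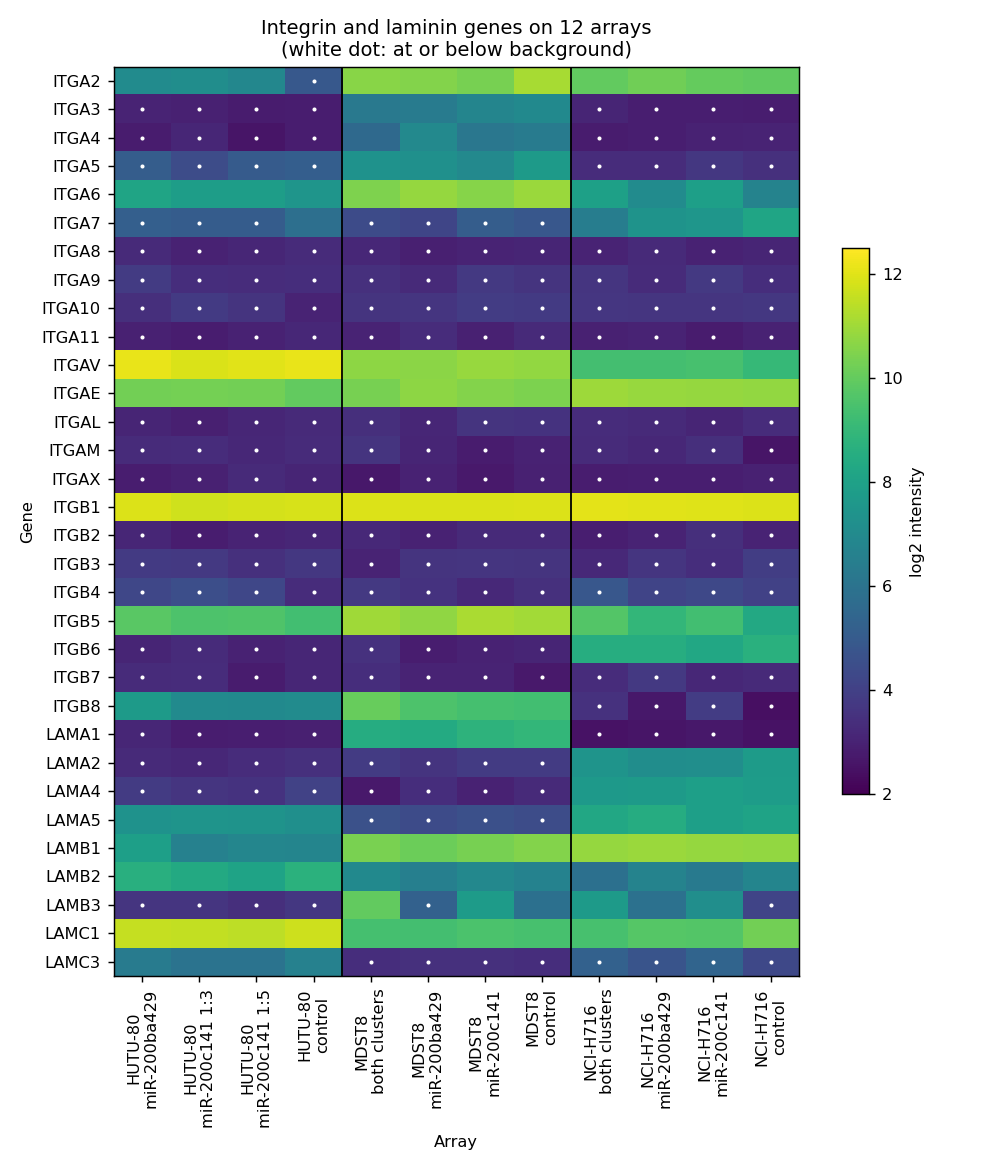
Log2 intensity of the 32 measured genes (rows) on the 12 arrays (columns), grouped by line, with the control on the right of each line and a white dot where the value is at or below background (5.43). The columns of a line look alike, and most differences lie between lines.

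The members divided into 8 genes above background on every array, 13 on some and 11 on none. In the comparison of levels between lines, over all arrays with a term for the construct, 21 of the 32 genes passed the test (limma, Benjamini-Hochberg adjusted p under 0.05), which is 65.6% of the members. The same test called 62.1% of all genes, so a share of this size is close to the background of the whole array and is not a result about these genes. In 11 of the 21 genes the arrays of all 3 lines did not overlap. Among these, ITGA5, LAMA1, LAMA2, LAMA4 and LAMC3 were above background in the highest line alone. The order of the lower lines in these genes therefore lies below background. In 8 only the highest line stood apart, in 1 (LAMB3) only the lowest, and in 1 (ITGB4, below background everywhere) the lines overlapped. The shares of all genes with such separation were not computed, so these counts are not a result about these genes either.

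Among the integrin alpha chains, ITGAV, the alpha chain shared by the receptors for vitronectin and for latent TGF-beta, was highest in HUTU-80. Over the 4 arrays of a line (mean ± SD, here and below) it averaged 12.06 ± 0.13 in HUTU-80 and 10.75 ± 0.09 in MDST8, and NCI-H716 was lowest at 9.31 ± 0.18. The 4 arrays are the control and the construct arrays, so this SD is not a spread of replicates. Both HUTU-80 miR-200c141 arrays were counted in it. ITGA5, the alpha chain of the main fibronectin receptor, was above background only in MDST8, at 7.33 ± 0.31, and stayed at or below 5.12 in HUTU-80 and 3.71 in NCI-H716. ITGA3, a laminin receptor chain, averaged 6.60 ± 0.34 in MDST8 and lay below background on all 8 arrays of the other lines. ITGA4, which pairs with ITGB1 or ITGB7 and binds VCAM1 and fibronectin, likewise was above background only in MDST8 (6.27 ± 0.57). ITGAE, the alpha chain that binds E-cadherin, was above background on every array, with averages of 10.88 ± 0.07 in NCI-H716, 10.51 ± 0.16 in MDST8 and 10.20 ± 0.15 in HUTU-80. ITGA3, ITGA4 and ITGA5 were thus above background in MDST8 alone, while ITGAV and ITGAE were above it in all lines.

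Among the beta chains, ITGB1, the common partner of most matrix-binding alpha chains, did not differ between lines in the test (adjusted p = 0.134), with averages of 12.01 ± 0.05 in NCI-H716, 11.93 ± 0.04 in MDST8 and 11.85 ± 0.08 in HUTU-80. ITGB6, an epithelial partner of ITGAV that activates TGF-beta, was above background only in NCI-H716, at 8.51 ± 0.16, against 3.13 ± 0.12 in HUTU-80 and 3.11 ± 0.27 in MDST8. ITGB8, another partner of ITGAV, showed the opposite distribution, with 9.59 ± 0.32 in MDST8, 7.20 ± 0.35 in HUTU-80 and no array above background in NCI-H716. ITGB4, the beta chain of the hemidesmosome receptor, was below background on all 12 arrays, with a highest value of 4.84. The leukocyte chains ITGB2, ITGAL, ITGAM and ITGAX and the chains ITGA8, ITGA9, ITGA10, ITGA11, ITGB3 and ITGB7 were also below background everywhere. Together with ITGB4 they make up the 11 genes with no value above background.

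The laminin alpha chains above background differed by line, with LAMA1 in MDST8, LAMA5 in HUTU-80, and LAMA2, LAMA4 and LAMA5 in NCI-H716. LAMA1, a chain prominent in embryonic basement membranes, was above background only in MDST8, at 8.67 ± 0.26, against 2.95 ± 0.13 in HUTU-80 and 2.57 ± 0.08 in NCI-H716. LAMA2, the chain of muscle and peripheral nerve laminin, and LAMA4, the chain of vascular basement membranes, were above background only in NCI-H716, at 7.38 ± 0.28 and 7.78 ± 0.11. LAMA5, the chain widespread in adult epithelial basement membranes, reached 8.20 ± 0.26 in NCI-H716 and 7.35 ± 0.09 in HUTU-80, and stayed below background in MDST8 (4.51 ± 0.09). Whether LAMA3 would add to this order is not known, since it was not measured.

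The beta and gamma chains were more widely shared. LAMC1, the gamma chain of most laminins, was present in all lines, with an average of 11.56 ± 0.10 in HUTU-80, above the 9.79 ± 0.33 of NCI-H716 and the 9.43 ± 0.07 of MDST8, which overlapped. LAMB1, the beta chain of the classical laminins, averaged 10.85 ± 0.06 in NCI-H716, 10.35 ± 0.15 in MDST8 and 7.04 ± 0.60 in HUTU-80. LAMB2, the beta chain found at synapses and in the kidney filter, was highest in HUTU-80, at 8.46 ± 0.28, and the other lines overlapped (6.77 ± 0.21 in MDST8, 6.43 ± 0.41 in NCI-H716). LAMC3 was above background only in HUTU-80 (6.25 ± 0.30). In the controls alone, 7 integrin and 5 laminin genes were above background in HUTU-80, 10 and 5 in MDST8, and 8 and 6 in NCI-H716.

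With both clusters against control, 1 of the 32 genes rose (LAMB3) and none fell, where 2.33% of all genes rose and 3.81% fell. At an unadjusted p under 0.05 there were 8 of 32 members, and 22% of all genes, so these counts are no result about the members as a group. In miR-200c141 against control, miR-200ba429 against control, any construct against control, and miR-200c141 against miR-200ba429, limma called 0% of all genes and no member in either direction. The members with an unadjusted p under 0.05 numbered 2, 2, 4 and 0 in these 4 comparisons, in the order given, where all genes had 6.58%, 6.14%, 9.36% and 3.57%. In both clusters against miR-200c141 no member passed, where 0.0253% of all genes rose and 0.339% fell, and 2 members had an unadjusted p under 0.05, where 12% of all genes did. When the change with a construct was compared between lines, 1 member passed, ITGA2, which was the single gene called on the whole array (0.00506%). There 4 members had an unadjusted p under 0.05, where 4.99% of all genes did.

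**Figure D2:**
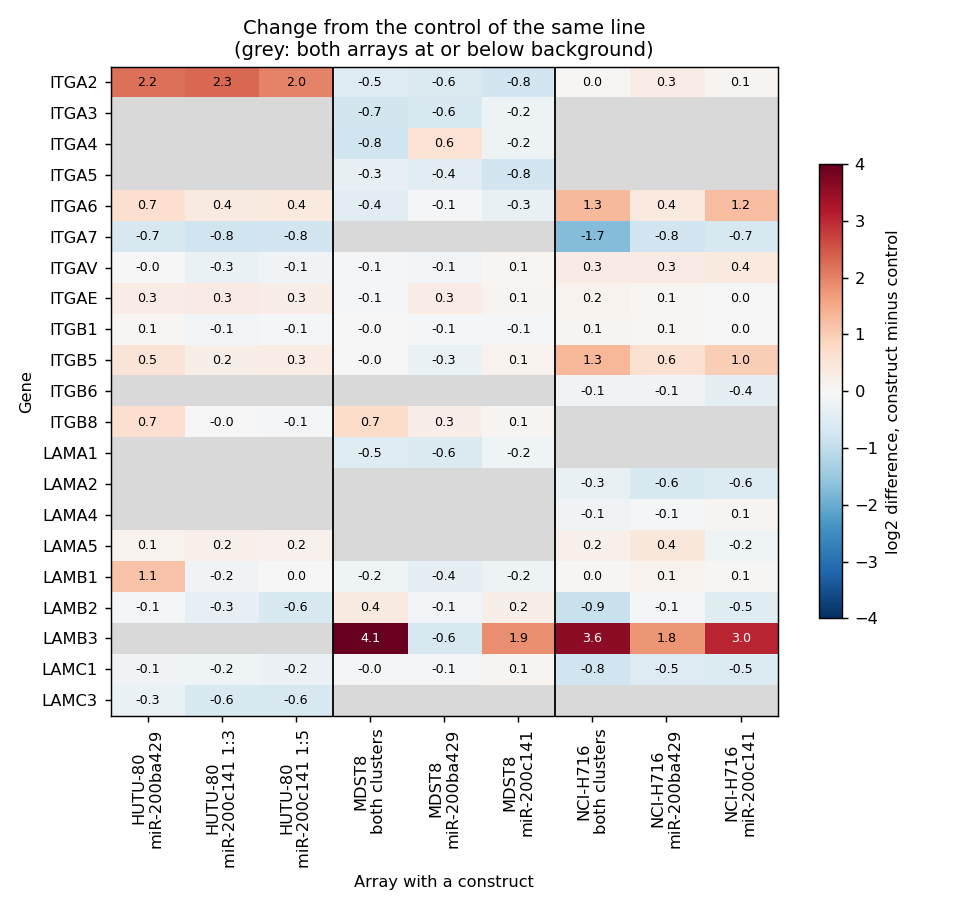
Log2 difference between each of the 9 construct arrays (columns) and the control of the same line, for the 21 genes (rows) above background on some array, with grey cells where both values were at or below background. LAMB3 in MDST8 and NCI-H716 and ITGA2 in HUTU-80 stand out, with differences of up to 4.07 and 2.28.

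LAMB3, the beta chain of laminin-332, rose with both clusters, and it was above background in MDST8 and NCI-H716 alone. In MDST8 the level was 9.96 with both clusters, 7.74 with miR-200c141 and 5.25 with miR-200ba429, against 5.89 in the control. In NCI-H716 it was 7.73 with both clusters, 7.19 with miR-200c141 and 5.92 with miR-200ba429, against 4.15 in the control. In both lines the array with both clusters was highest and the miR-200c141 array second, and the miR-200ba429 array was below the control in MDST8 but above it in NCI-H716. The MDST8 miR-200ba429 array (5.25) and the NCI-H716 control (4.15) were themselves below background, so the sizes of these differences were not measured. In HUTU-80 the level was 3.60 and 3.43 with miR-200c141 at 1:3 and 1:5 and 3.62 with miR-200ba429, against 3.70 in the control. All 4 HUTU-80 values were below background, so no change could be measured there, and none of these arrays carried both clusters.

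Between both clusters and control the fitted difference of LAMB3 was 3.47 ± 0.67 log2 units (limma, SE, adjusted p = 0.0149), with 2 of 2 arrays higher than the control of their line, by 4.07 in MDST8 and 3.59 in NCI-H716. That fit also held the HUTU-80 arrays, all below background, and without them the difference was 3.83. LAMB3 was above background on both arrays with both clusters and on 1 of 3 control arrays (MDST8). The NCI-H716 control gives only an upper limit, so that array with both clusters was at least 4.94-fold higher, the miR-200c141 array at least 3.39-fold and the miR-200ba429 array at least 1.40-fold. Without the NCI-H716 control the fitted difference was 2.86 (adjusted p = 0.0686), and without the MDST8 array with both clusters it was 2.63 (adjusted p = 0.120). Both arrays with both clusters also had the largest 3′ minus 5′ signal of their line in the ACTB control probe sets, 2.02 in MDST8, where the other arrays had up to 1.54, and 2.63 in NCI-H716, where the others had up to 2.40. The summed log2 level of the epithelial markers was also higher, at 48.5 with both clusters, against 44.8 in the control, in MDST8. In NCI-H716 it was 104 with both clusters, against 84.0 in the control. In MDST8 only KRT18 (11.79, against 9.89 in the control) and KRT8 (5.58, against 4.61) were above background with both clusters. CDH1 and EPCAM were below background on every MDST8 array. The part of RNA quality and of these markers in the LAMB3 difference was not tested. The cells with both clusters had also gone through 2 transductions, which cannot be told apart from carrying both clusters, here or below. The RNA came from whole populations of sorted cells, so a change in the number of cells with a transcript and a change in transcript per cell cannot be told apart here or below.

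With 1 cluster the LAMB3 difference did not pass. With miR-200c141 against control it was 1.57 ± 0.58 (limma, SE, adjusted p = 0.690), higher in 2 of 3 lines. With miR-200ba429 against control it was 0.35 ± 0.58 (adjusted p = 0.937), higher in 1 of 3 lines. HUTU-80, counted among these lines, had no value above background. Without its arrays the differences were 2.45 with miR-200c141 and 0.57 with miR-200ba429. Any construct against control gave 1.54 ± 0.79 (adjusted p = 0.562), and 0.87 without the NCI-H716 control. Both clusters against miR-200c141 gave 1.89 ± 0.67 (adjusted p = 0.283), higher in 2 of 2 lines, and 1.05 without the MDST8 array with both clusters. The change of LAMB3 was not shown to differ between lines either (limma's F test, adjusted p = 1.00), a test in which the HUTU-80 values and the NCI-H716 control were below background. In MDST8, where the control was above background but the miR-200ba429 array was not, the mean change was 1.76 ± 2.36 (SD, n = 3 constructs).

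**Figure D3:**
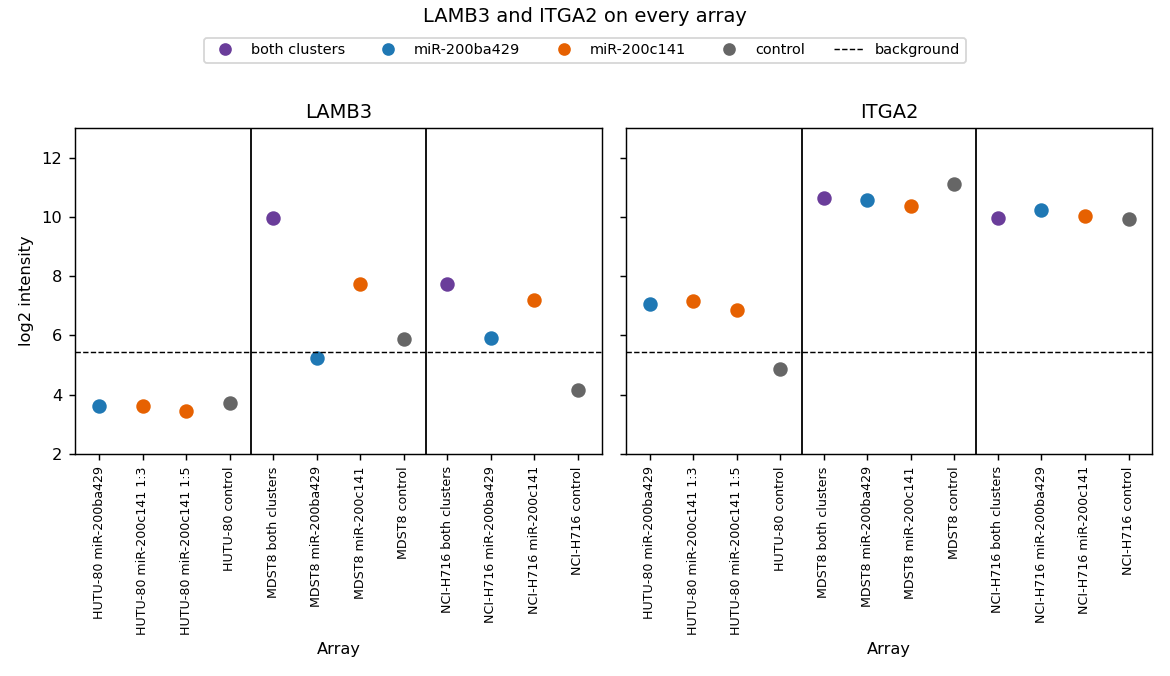
Log2 intensity of LAMB3 and ITGA2 on each of the 12 arrays, coloured by construct, with the control on the right of each line and the background of 5.43 as a dashed line. LAMB3 is at 9.96 and 7.73 with both clusters, against 5.89 and 4.15 in the controls of MDST8 and NCI-H716, and ITGA2 is at 6.86 to 7.16 on the 3 HUTU-80 construct arrays, against 4.87 in the HUTU-80 control.

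ITGA2, the collagen-binding alpha chain, was the one member whose change differed between lines in the test. In HUTU-80 its level was 7.16 and 6.86 with miR-200c141 at 1:3 and 1:5 and 7.06 with miR-200ba429, against 4.87 in the control. In MDST8 it was 10.63 with both clusters, 10.37 with miR-200c141 and 10.57 with miR-200ba429, against 11.13 in the control. In NCI-H716 it was 9.96 with both clusters, 10.03 with miR-200c141 and 10.23 with miR-200ba429, against 9.93 in the control. All 3 construct arrays were above the control in HUTU-80, all 3 were below it in MDST8, and all 3 were slightly above it in NCI-H716.

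The mean change of ITGA2 was 2.16 ± 0.04 in HUTU-80 (SD, n = 2 constructs), −0.61 ± 0.14 in MDST8 (n = 3) and 0.15 ± 0.14 in NCI-H716 (n = 3). The largest difference between lines, HUTU-80 minus MDST8, was 2.77 log2 units (limma's F test of the change by line, adjusted p = 0.0288). This test took the different constructs of a line as its spread, and they were not replicates of 1 construct. Because the HUTU-80 control was below background, the change there is a lower limit, at least 2.69-fold to 3.31-fold on the 3 arrays. Each line had 1 control array, so the spread of controls within a line was not measured, and the HUTU-80 change rests on that array. Without the NCI-H716 arrays the difference stayed at 2.77 but its adjusted p was 0.250, and without the HUTU-80 arrays the largest difference was 0.76 (adjusted p = 0.871). The call was also lost without the MDST8 arrays (adjusted p = 0.0564) and without the single samples of HUTU-80 miR-200c141 (0.108), HUTU-80 miR-200ba429 (0.133), MDST8 miR-200c141 (0.114) and NCI-H716 miR-200c141 (0.174), with differences of 2.80, 2.75, 2.70 and 2.77 without these single samples. Over the 3 lines, any construct against control gave 0.50 ± 0.34 (limma, SE, adjusted p = 0.643), and without the HUTU-80 arrays −0.23.

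A second ITGA2 probe set, dimmer than the one above, was read beside it. In HUTU-80 it gave 5.41 and 6.48 with miR-200c141 at 1:3 and 1:5 and 6.31 with miR-200ba429, against 5.28 in the control. The differences were 0.13, 1.20 and 1.03, so the 1:3 array, which had the largest difference in the brighter probe set, had the smallest here, with both values below background. In MDST8 the second probe set changed by −1.07 to −0.46 on the 3 arrays, and in NCI-H716 by 0.07 to 0.27. With the mean of both probe sets the largest difference between lines was 2.19 (adjusted p = 0.0805). In HUTU-80, 3 to 4 of the 11 epithelial markers were above background with constructs, against 1 in the control, with summed log2 levels of 54.3 to 57.8 against 44.3. The part of these markers in the ITGA2 change was not tested.

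**Figure D4:**
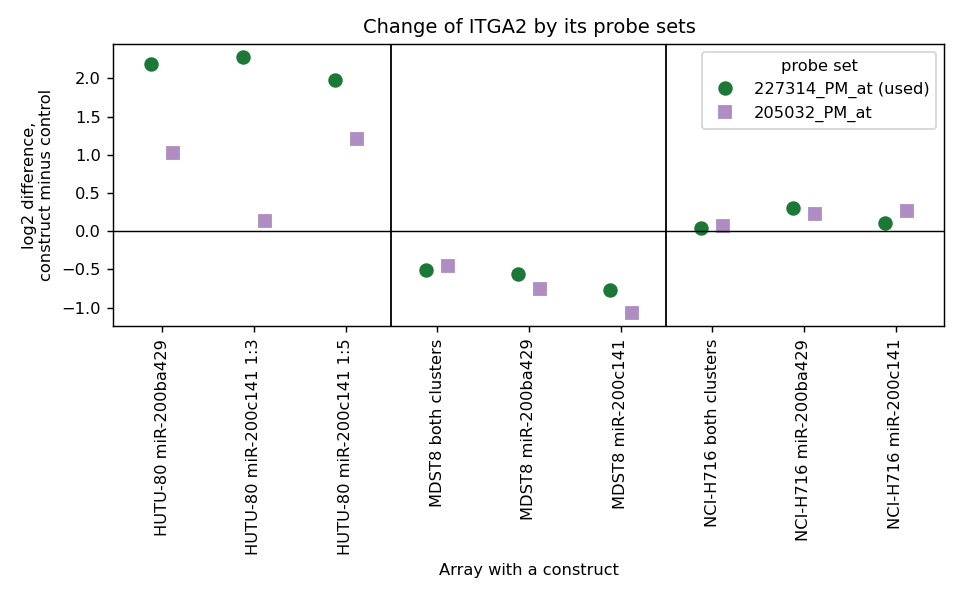
Log2 difference of ITGA2 between each construct array and the control of its line, for the probe set used (circles) and the second, dimmer probe set (squares). Both are positive in HUTU-80, negative in MDST8 and near 0 in NCI-H716, but on the HUTU-80 1:3 array they are 2.28 and 0.13.

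Besides LAMB3 and ITGA2, 4 members had a value above background and a difference from control of at least 1 log2 unit on some array, namely ITGA6, ITGA7, ITGB5 and LAMB1. None passed a comparison of constructs. ITGA6, the laminin-binding alpha chain that pairs with ITGB4 in hemidesmosomes and with ITGB1 elsewhere, moved most in NCI-H716. There it was 7.98 with both clusters, 7.94 with miR-200c141 and 7.08 with miR-200ba429, against 6.69 in the control. In HUTU-80 it was 7.84 on both miR-200c141 arrays and 8.13 with miR-200ba429, against 7.46 in the control. In MDST8 it was 10.48 with both clusters, 10.59 with miR-200c141 and 10.85 with miR-200ba429, against 10.90 in the control. The construct arrays were above the control in HUTU-80 and NCI-H716 and below it in MDST8, the same signs as for ITGA2. Any construct against control gave 0.40 ± 0.23 (limma, SE, adjusted p = 0.592), with 0.10 without the NCI-H716 control and 0.76 without the MDST8 control, and the difference between lines did not pass (adjusted p = 1.00). Its second probe set had the same signs on all 9 arrays, but it was below background on every NCI-H716 array, in the HUTU-80 control and on the HUTU-80 miR-200c141 1:5 array.

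ITGA7, a laminin receptor chain known from muscle, was lower with constructs in NCI-H716 and HUTU-80. In NCI-H716 it was 6.43 with both clusters, 7.50 with miR-200c141 and 7.39 with miR-200ba429, against 8.15 in the control. In HUTU-80 it was 5.04 and 5.05 with miR-200c141 at 1:3 and 1:5 and 5.17 with miR-200ba429, against 5.83 in the control, which was the one HUTU-80 array above background. In MDST8 all values were below background, and a second ITGA7 probe set was below background on every array. Both clusters against control gave −1.15 ± 0.31 (limma, SE, adjusted p = 0.0530), measured above background in NCI-H716 alone, and any construct against control gave −0.69 ± 0.26 (adjusted p = 0.503). The value with both clusters lay just outside the threshold, and it passed in 6 of 20 other settings, among them without the MDST8 arrays (−1.73, adjusted p = 0.00771). It was −0.63 without the NCI-H716 arrays (adjusted p = 0.460), −0.68 without the NCI-H716 array with both clusters (0.294) and −0.68 when its probe sets were averaged (0.144).

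ITGB5, a beta chain that pairs with ITGAV to bind vitronectin, was higher with every construct in NCI-H716 and HUTU-80. In NCI-H716 it was 9.67 with both clusters, 9.34 with miR-200c141 and 8.96 with miR-200ba429, against 8.35 in the control. In HUTU-80 it was 9.56 and 9.61 with miR-200c141 at 1:3 and 1:5 and 9.83 with miR-200ba429, against 9.32 in the control. In MDST8 it was 11.02 with both clusters, 11.18 with miR-200c141 and 10.76 with miR-200ba429, against 11.03 in the control, so the control lay within the construct arrays. Both clusters against control gave 0.66 ± 0.24 (limma, SE, adjusted p = 0.130) and any construct against control 0.44 ± 0.18 (adjusted p = 0.513). Without the MDST8 arrays the difference with both clusters was 1.19 (adjusted p = 0.0156), and without the MDST8 control 0.97 (adjusted p = 0.0359). It was 0.14 without the NCI-H716 arrays, 0.28 without the NCI-H716 array with both clusters, 0.35 without the NCI-H716 control and 0.24 when its probe sets were averaged, so it rested on NCI-H716. Its second brightest probe set gave differences of 1.03, 0.94 and 0.61 in NCI-H716, close to 1.33, 0.99 and 0.62 in the brightest, for both clusters, miR-200c141 and miR-200ba429, while 2 dimmer probe sets stayed below background on all NCI-H716 arrays. One of these, in MDST8, was at 6.51 with both clusters, against 7.15 in the control.

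LAMB1 had a difference of that size on a single array. In HUTU-80 it was 6.63 and 6.82 with miR-200c141 at 1:3 and 1:5 and 7.93 with miR-200ba429, against 6.79 in the control. The miR-200ba429 array stood 1.15 above the control, and the second LAMB1 probe set stood 0.93 above it on the same array. In MDST8 LAMB1 was 10.37 with both clusters, 10.34 with miR-200c141 and 10.16 with miR-200ba429, against 10.54 in the control, all within 0.38 of it. In NCI-H716 it was 10.83, 10.84 and 10.92 with both clusters, miR-200c141 and miR-200ba429, against 10.79 in the control.

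**Figure D5:**
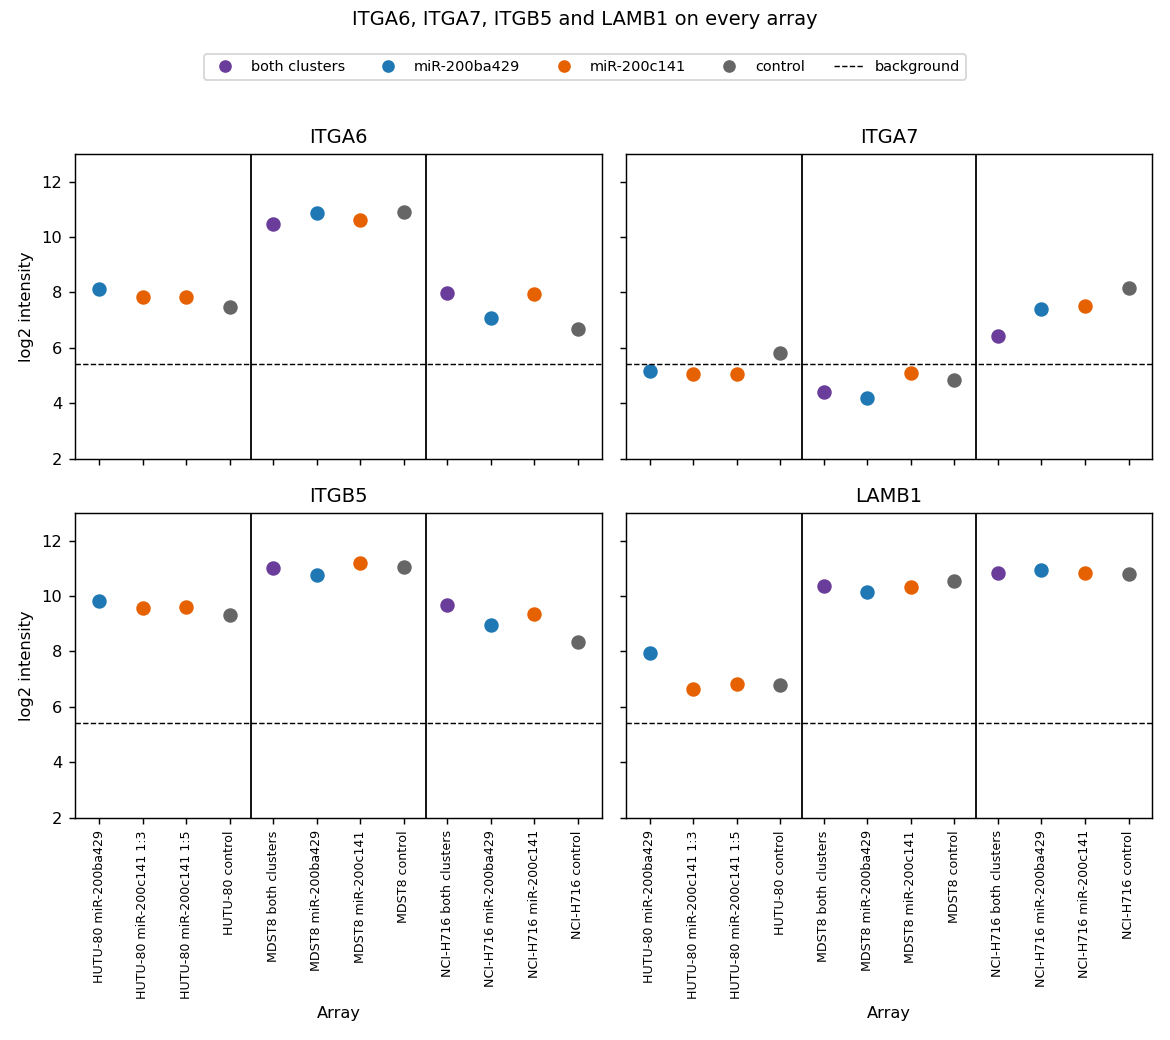
Log2 intensity of ITGA6, ITGA7, ITGB5 and LAMB1 on each of the 12 arrays, coloured by construct, with the control on the right of each line and the background of 5.43 as a dashed line. In NCI-H716 the construct arrays lie above the control for ITGA6 and ITGB5 and below it for ITGA7, and LAMB1 departs on the HUTU-80 miR-200ba429 array (7.93, against 6.79 in the control).

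The remaining 15 genes with some value above background changed by −0.91 to 1.45 log2 units over the 9 construct arrays. The highest value belongs to ITGB8 with miR-200c141 in NCI-H716, where both arrays were below background, and the lowest to LAMB2 with both clusters in NCI-H716 (5.89, against 6.80 in the control). LAMC1 differed by −0.40 ± 0.14 with both clusters against control (limma, SE, adjusted p = 0.136), with −0.80 in NCI-H716 and −0.03 in MDST8. ITGB1 differed from its control by −0.11 to 0.10 on the 9 arrays. The 11 genes below background everywhere varied by −0.71 to 1.20. The highest of these was ITGB4 in HUTU-80 with miR-200c141 at 1:3 (4.51, against 3.32 in the control), which remained below background. Among members above background, 4 of 15 (26.7%) differed by at least 1 log2 unit from control with both clusters in NCI-H716, where 9.28% of all genes above background did, and 1 of 15 (6.67%) in MDST8, where 11.2% did.

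Genes that work with integrins and laminins were read from 4 lists, chosen, like the members, with earlier results of these data known. With both clusters against control, none of 31 measured adaptors of integrin adhesions rose and 5 fell, with a median change of −0.005, against 0.0004 over all genes. Of all genes 2.33% rose and 3.81% fell in this comparison, the shares against which all 4 lists are to be read. The arrays with both clusters had a higher 3′ minus 5′ signal and a higher summed epithelial marker level, given above for LAMB3. These, and the second transduction, hold for the calls here as well, and their part was not tested. KANK2, an adaptor at the rim of focal adhesions, fell most, to 7.96 in MDST8 and 6.33 in NCI-H716 with both clusters, against 9.86 and 7.86 in the controls (−1.68 ± 0.22, limma, SE, adjusted p = 0.00233). The others were TGFB1I1 (−1.04 ± 0.22), FERMT2, which helps to activate integrins (−0.94 ± 0.21), TNS3 (−0.91 ± 0.18) and the actin crosslinker ACTN1 (−0.33 ± 0.08). KANK2 was also the one gene of the 4 lists that passed with both clusters against miR-200c141 (−1.21 ± 0.22, adjusted p = 0.0448).

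Of 17 measured partners of laminins and hemidesmosomes, 1 rose and none fell with both clusters against control (2.33% and 3.81% of all genes), with a median change of 0.03. It was PLEC, the linker between hemidesmosomes and intermediate filaments, at 8.05 in MDST8 and 6.66 in NCI-H716 with both clusters, against 7.12 and 6.05 in the controls (0.70 ± 0.18, limma, SE, adjusted p = 0.0490). Of 34 other integrin ligands, 1 rose and 3 fell (again against 2.33% and 3.81% of all genes), with a median of −0.11. CCN2, a matricellular protein, was the gene called higher (adjusted p = 0.0368), but all its NCI-H716 values were below background, and in MDST8 it was 10.23 with both clusters and 10.78 with miR-200ba429, against 9.28 in the control. TGFB1, whose latent form binds integrins of the alpha-V group, was called lower (adjusted p = 0.0186), at 6.29 in MDST8 with both clusters, against 7.49 in the control, and below background in NCI-H716 with both clusters, against 6.07 in the control. The integrin ligand EDIL3 fell by 0.79 and the collagen chain COL6A1 by 0.68. Of 24 genes of integrin traffic and activity, the recycling factor RAB11FIP1 rose (1.70 ± 0.22) and the tetraspanin TSPAN4 fell (−1.25 ± 0.22), against the same shares of all genes, with a median of 0.09. In the other comparisons with control, and in the comparison of changes between lines, no gene of the 4 lists passed.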

How the data were processed

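The deposited table holds log2 intensities of 54715 probe sets on 12 Affymetrix U133 Plus PM arrays, which the authors made with RMA, per the submitters' processing notes, which name no version. The members and the lists were chosen with earlier results of these data known. A gene was represented by the probe set of highest mean among the 40920 that name a single gene (864 name several), through GEO's platform annotation and RefSeq symbols (40864 matched). The 102 manufacturer's control probe sets were left out of tests. Values on every array are given for ITGA2, LAMB3, members called against control, and members above background with a change of at least 1 log2 unit; LAMB1 and the others were named by this rule.

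Groups were compared with limma 3.58.1 in R 4.3.3 (lmFit, eBayes with a variance trend) on 11 samples, with the cell line as a block and Benjamini-Hochberg adjustment over 19774 genes at 0.05; 5 residual degrees of freedom remained, or 7 for any construct. The block pairs the samples of 1 cell line. The change between lines was tested by the F of construct by line. The code was tested on simulated data. Nothing says that arrays of a line came from separate cultures, so p-values measure the spread between these samples, and precision is limited by the number of arrays. The alternatives tried were the mean of all probe sets, a filter on dim genes, the HUTU-80 miR-200c141 arrays kept apart, no block, no variance trend, only the groups compared, and each sample or line left out; leaving out a control was chosen after seeing the data.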

Additional observations from a re-analysis of the deposited data

Results flagged for a closer look

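Within each line, the 4 arrays were compared for 43 combinations of a gene and a line with a value above background. In 5 of them 1 array stood apart from the other 3 by more than Dixon's limit. Chance gives about 1 in 20 for arrays that are replicates. The 4 arrays of a line are a control and arrays with constructs, so that rate is no reference for this count. ITGA2 in the HUTU-80 control was 4.87, where the other HUTU-80 arrays had 6.86 to 7.16. ITGAV in the NCI-H716 control was 9.05, where the other arrays had 9.38 to 9.44. ITGAE in the HUTU-80 control was 9.97, where the others had 10.25 to 10.30. LAMB1 on the HUTU-80 miR-200ba429 array was 7.93, where the others had 6.63 to 6.82. ITGB8 on the same array was 7.73, where the others had 6.97 to 7.05. The change of ITGA2 with a construct also differed between lines (limma's F test, adjusted p = 0.0288).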

How the results depend on the processing

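With both clusters against control, 1214 genes passed; with the mean of all probe sets 662 did, without the variance trend 679, with only the groups compared 19, and without the block that pairs samples of a line 0. Leaving out samples or lines gave 362 to 1680. Members called in that comparison numbered 1; they were 2 with the dim filter, 2 with the HUTU-80 miR-200c141 arrays apart, 0 without the block, and 0 to 4 with samples left out. Both clusters against miR-200c141 called 72 genes, against 164 with those arrays apart, 14 with the mean of probe sets, 0 without the trend, 0 without the block, 1 with only the groups compared, and 0 to 608 with samples left out. The change between lines called 1 gene, against 14 with those arrays apart, 3 with the mean of probe sets, 0 without the trend, and 0 to 31 with samples left out; the member called (1) became 0 with the mean of probe sets, 0 without the trend, and 0 to 1 with samples left out. The 0 genes called with miR-200c141 became 3 with the arrays apart, 4 with only the groups compared and 0 to 22 with samples left out; with samples left out, miR-200ba429 gave 0 to 6 and any construct 0 to 8.

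LAMB3 with both clusters ranged from 2.63 to 4.31 and passed in 16 of 20 settings; without the block it was 4.27 (adjusted p = 0.999). With miR-200ba429 it turned to −0.36, −0.17 and −0.10 without the NCI-H716 line, its control or its miR-200ba429 array, and reached 1.01 without the MDST8 miR-200ba429 array. ITGA2 between lines passed in 6 of 15 settings and was 2.77 without the trend (adjusted p = 0.0778); with any construct it ranged from −0.23 (without the HUTU-80 line or its control) to 1.10. ITGB5 with both clusters passed in 2 of 20. With any construct ITGB5 ranged from 0.15 to 0.70, and LAMB3 with miR-200c141 from 0.84 to 2.45, passing in none. In the comparison of levels between lines, 17 to 22 members passed over the settings run. The cause of these shifts was not tested. Few arrays and values near background limit the precision.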
